A study of Mus musculus with 46 samples.

Results

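TRBV3 and TRBV4 are neighbouring variable (V) segments near the upstream end of the mouse T cell receptor beta (TCRβ) locus. They were followed here through every rearrangement that the deposited tables assign to either segment, in 17 libraries. TRBV3 took 13895 of 153913 rearrangements (9.03%) and 349289 of 6441043 reads (5.42%). TRBV4 took 6598 rearrangements (4.29%) and 236521 reads (3.67%). The tables name 23 V segments in all. In the GRCm38.p6 annotation, which is build mm10, Trbv3 lies at chr6:41048394-41048824 and Trbv4 at chr6:41059443-41059886, 10618 bp further on. Trbv2 ends 398 bp before Trbv3, and Trbv5 starts 2472 bp after Trbv4. The annotation gives the older names Tcrb-V16 for Trbv3 and Tcrb-V10 for Trbv4.

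A beta chain gene is assembled in the thymus when a V, a diversity (D) and a joining (J) segment are cut and joined. The cut ends lose bases and gain non-templated bases, and the joint forms CDR3, the loop of the receptor that lies over the presented peptide. The V segment encodes the other loops, which mainly touch the presenting molecule. T cells that descend from the same parent cell share the joint, so the reads of a joint follow the size of a clone.

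The study read TCRβ genes from genomic DNA of T cells from mice with experimental autoimmune encephalomyelitis (EAE), an immunization model of multiple sclerosis, and from naive mice, and its title concerns pregnancy and regulatory T cells. Non-pregnant C57BL/6 wild-type mice with EAE gave T cells without CD8, in 3 libraries from the central nervous system (CNS) and 3 from the periphery. DEREG mice, a strain in which a Foxp3-driven transgene marks regulatory T cells, gave CD4+Foxp3+ regulatory (Treg) and CD4+Foxp3- conventional (Tcon) cells, both from spleen with lymph nodes. Treg of EAE mice at embryonic day 18 of pregnancy (E18) had 5 libraries. Each of 6 further groups had 1 library. For Treg these were non-pregnant mice, with EAE or naive, and for Tcon they were naive and EAE mice, each pregnant at E18 or not. The labels list 29 further samples, which were not analysed here, and they do not say whether a library is 1 mouse or a pool. A TCRβ sequence carries no Foxp3 or CD4 marker, so the labelled cell types could not be checked. Wild-type, Treg and Tcon libraries carry different codes in the names under which they were deposited. The codes were read as runs, which was not checked. Whatever goes with the code and a difference in cell type cannot be told apart.

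Libraries held 278420 to 571124 reads over 1698 to 19898 rearrangements. Clonotypes were counted as distinct pairs of V segment and CDR3 protein sequence. Rearrangements that were at least 50 times more abundant in another library made up 14.2% to 29.4% of the CNS tables, 2.98% to 5.56% of the periphery tables and 0.261% to 22.3% of the DEREG tables. Results were also computed without them (below, the carry-over filter). V segments favoured by natural killer T cells (TRBV13-2, TRBV29 and TRBV1) summed to 25.4% to 32.3% of clonotypes in the CNS, 23.3% to 25.3% in the periphery and 20.04% to 25.3% in DEREG libraries, and their part in the results was not tested.

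The ends of both segments that enter CDR3 are shown first, because the letters differ between TRBV3 and TRBV4 only past a shared stretch. They are consensus sequences of the V part of the deposited CDR3s, out to the last base assigned to V in at least 10% of rearrangements. Lower case marks the 13 bases that the segments share, counted from 1 at the cysteine codon, and capitals mark what follows.
TRBV3: tgtgccagcagctTAG
TRBV4: tgtgccagcagctA
The first difference is T14A, with the base of TRBV3 given first. The V part reached base 14 in 54.7% of TRBV3 rearrangements and in 19.6% of TRBV4 rearrangements, and it reached base 16 in 29.6% of TRBV3 rearrangements.

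More CDR3 bases were assigned to V in TRBV3 than in TRBV4 joints in each of the 17 libraries, with means of 14.0 ± 0.13 and 12.7 ± 0.11 bases (SD, n = 17). For all other V segments the library means ran from 14.2 to 14.5 bases. No germline sequence was at hand, so the loss of bases from the V ends was not measured. Where a D segment was assigned, TRBV3 joints held 2.50 ± 0.16 inserted bases and TRBV4 joints 3.13 ± 0.50, lower for TRBV3 in 17 of 17 libraries. No D segment was assigned in 26.02% ± 2.9 of TRBV3 and 22.4% ± 3.1 of TRBV4 rearrangements. The V ends are visible in the protein. CDR3s starting with CASSL made up 45.9% ± 3.1 of TRBV3 clonotypes and 14.2% ± 3.0 of TRBV4 clonotypes. CDR3s starting with CASSY made up 1.04% ± 0.59 of TRBV3 clonotypes and 13.9% ± 3.0 of TRBV4 clonotypes. These are descriptions of how the segments were joined and assigned, and no test was run on them.

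J partners also differed between the neighbours. TRBJ1-6 was rare with TRBV3 and common with TRBV4. It was used by 1.80% ± 0.71 of TRBV3 clonotypes, 6.12% ± 1.5 of TRBV4 clonotypes and 4.83% ± 0.59 of clonotypes of all other V segments (SD, n = 17). The TRBV3 share ranged from 0.625% in CNS replicate 2 to 3.26% in Treg EAE E18 replicate 4. The TRBV4 share ranged from 4.73% in Treg of EAE non-pregnant mice to 10% in CNS replicate 1. No library had a TRBV3 share as high as the lowest TRBV4 share.

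Shares of 13 J segments were compared within libraries by a two-sided permutation test of paired differences (100000 resamples) and adjusted over all 39 tests. Against all other V segments, 3 J segments passed for TRBV3, which is 23.1% of those tested. TRBJ1-6 was lower by 3.03 points, below the other segments in 17 of 17 libraries (permutation p = 3e-05, adjusted p = 0.00052). TRBJ1-7 was lower too, at 0.0140% against 0.118% (adjusted p = 0.00136, lower in 16 of 17 libraries). TRBV3 had only 2 clonotypes with TRBJ1-7 in all, and a library without any counts as lower. TRBV4, with a higher mean of 0.346%, was likewise lower than the rest in 10 of 17 libraries. The TRBJ1-7 call of TRBV3 therefore carries little weight. TRBJ1-2 was higher, at 5.94% against 4.76% (adjusted p = 0.0103, 13 of 17 libraries).

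For TRBV4, 4 of 13 J segments passed against all other V segments (30.8%). TRBJ1-6 was higher by 1.29 points in 16 of 17 libraries (adjusted p = 0.00052), and TRBJ2-4 was higher at 11.4% against 9.17% (adjusted p = 0.00969, 13 of 17 libraries). TRBJ1-3 was lower at 4.94% against 6.81% (adjusted p = 0.00203, 15 of 17 libraries), and TRBJ1-1 was lower at 8.66% against 10.3% (adjusted p = 0.0206, 13 of 17 libraries). Set directly against TRBV4, TRBV3 had less TRBJ1-6, by 4.32 points in 17 of 17 libraries (adjusted p = 0.00052). It had more TRBJ1-1 (by 3.09 points in 13 of 17 libraries, adjusted p = 0.0211), TRBJ1-2 (1.45 points, 14 of 17, adjusted p = 0.0039) and TRBJ1-3 (2.03 points, 14 of 17, adjusted p = 0.0109). These 4 calls are again 30.8% of the J segments tested. The TRBJ1-1 difference was seen in every Treg library, with 11.6% to 16.9% for TRBV3 and 5.35% to 12.1% for TRBV4. In Tcon the ranges overlapped, at 8.69% to 11.4% and 9.83% to 11.5%. TRBV3 was the lower in EAE non-pregnant Tcon, CNS replicate 1 and periphery replicates 1 and 2. Whether this difference varied between groups was not tested. When clonotypes were weighted by reads, only TRBJ1-6 still passed between TRBV3 and TRBV4, and no J segment passed for TRBV4 against the rest.

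**Figure D1:**
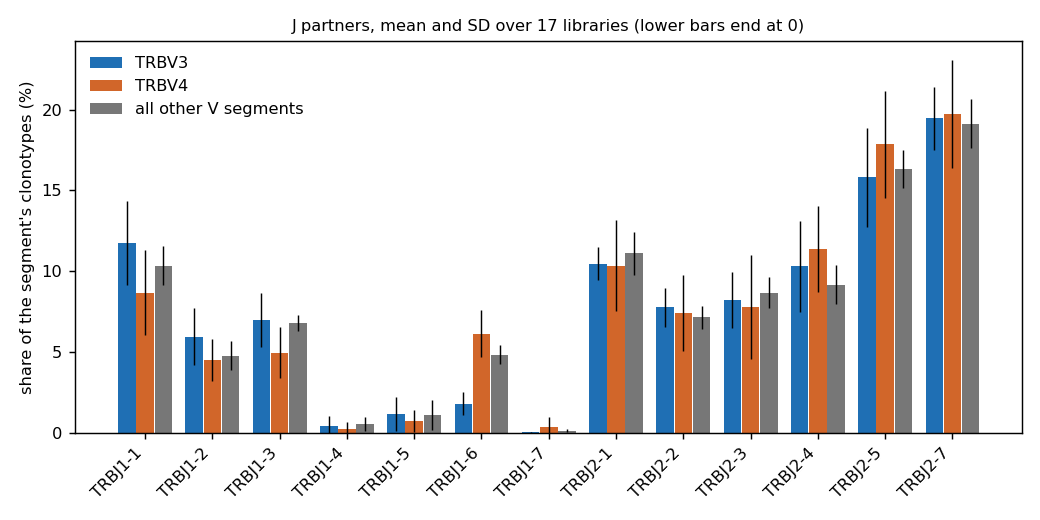
Share of each segment's clonotypes (%, y axis) that use each J segment (x axis), as means with SD over 17 libraries, for TRBV3, TRBV4 and all other V segments. TRBJ1-6 stands at 1.80% for TRBV3 and 6.12% for TRBV4, while TRBJ2-5 and TRBJ2-7 are common partners of both.

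The low TRBJ1-6 share of TRBV3 was not unique among V segments. Of the 16 V segments with at least 20 clonotypes in every library, TRBV15 had 1.76% ± 1.1, TRBV3 was next, and TRBV16 followed with 2.81% ± 0.86. TRBV4 ranked 14th from the lowest. TRBV3 and TRBJ1-6 were joined in 237 rearrangements. The log2 ratio of their median read number to that of all TRBV3 rearrangements of the same library ranged from -5 to 1.94, with a median of 0. It was taken over the 14 libraries with enough of these joints. The PCR used a primer per V and per J segment, and the part of primer pairs in these shares was not tested.

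TRBV3 was the larger segment in every library. Its share of clonotypes exceeded that of TRBV4 by 4.36 ± 1.6 points (SD, n = 17), higher in 17 of 17 libraries (permutation p = 3e-05, adjusted p = 0.00015 over 5 paired measures). The difference ranged from 2.15 to 7.83 points. TRBV3 ranked 2nd to 5th of 23 V segments in DEREG and periphery libraries and 6th or 7th in the CNS. TRBV4 ranked 10th to 14th.

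In the CNS, TRBV3 held 5.85%, 6.74% and 5.07% of clonotypes in replicates 1 to 3. In the periphery it held 7.66%, 8.10% and 7.77%. TRBV4 held 3.70%, 3.54% and 2.69% in the CNS and 4.87%, 4.998% and 4.47% in the periphery. The groups did not overlap for either segment, and the CNS was the lower. Shares of the groups did not overlap for 32.4% of the 34 V and J segments tested, and for 20.6% the CNS was the lower. In edgeR's quasi-likelihood test the CNS change was -0.21 for TRBV3 (log2, SE 0.10, adjusted p = 0.205) and -0.32 for TRBV4 (SE 0.11, adjusted p = 0.0807). Neither passed, and 8.82% of the segments did. With the replicate number as a block, TRBV4 changed by -0.33 and passed (adjusted p = 0.0477), while TRBV3 did not (adjusted p = 0.154). Without TMM scaling both passed, at -0.40 for TRBV3 (adjusted p = 0.0433) and -0.51 for TRBV4 (adjusted p = 0.0266). With the carry-over filter neither passed, with or without the block. The calls in the CNS thus depended on scaling, block and filter. In a share, fewer cells with a segment and more cells with other segments cannot be told apart.

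By reads the gap was wider and more scattered. TRBV4 held 2.90%, 1.06% and 0.931% of CNS reads and 6.06%, 5.72% and 4.65% of periphery reads. TRBV3 held 2.46%, 4.17% and 2.12% of CNS reads and 5.01%, 6.12% and 7.55% of periphery reads. The groups did not overlap for either segment, and a lower, non-overlapping read share was seen for 13.9% of the 36 segments tested. The log2 changes were -1.31 for TRBV4 (SE 0.60, adjusted p = 0.371) and -0.64 for TRBV3 (SE 0.52, adjusted p = 0.684). By reads 0.0% of segments passed in edgeR, with 4 at an unadjusted p under 0.05 and 0 in DESeq2. Among the other neighbours, TRBV5 rose by 0.68 by clonotypes in the CNS (SE 0.13, adjusted p = 0.0203), though no segment passed with the carry-over filter. By clonotypes TRBV2 had a log2 change of 0.10 (adjusted p = 0.59) and TRBV1 of -0.19 (adjusted p = 0.451), the latter close to that of TRBV3. By reads TRBV2 had a change of -0.02 (adjusted p = 0.971), TRBV5 of 1.25 (adjusted p = 0.371) and TRBV1 of -0.99 (adjusted p = 0.554), which lies between the values of TRBV3 and TRBV4.

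**Figure D2:**
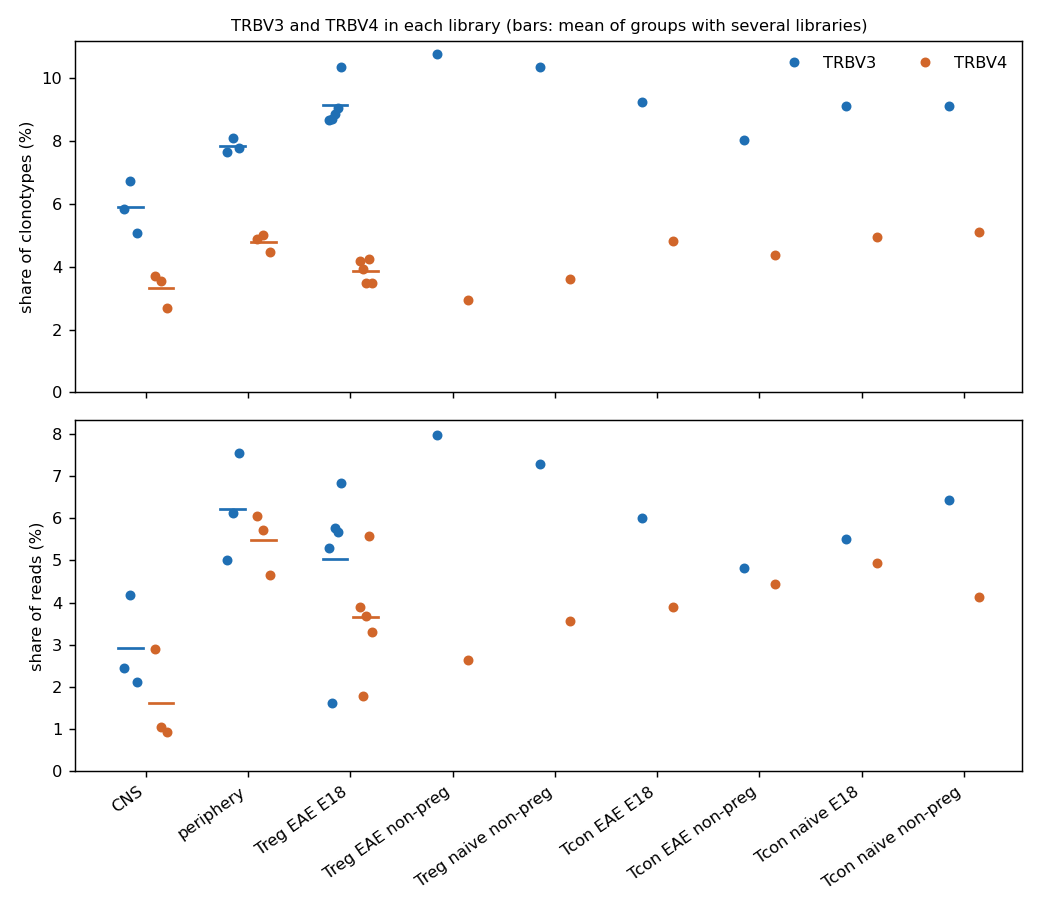
Share of clonotypes (%, upper panel) and of reads (%, lower panel) held by TRBV3 and TRBV4 in each library (points), with horizontal bars for the mean of groups with several libraries. CNS points lie below periphery points for both segments, and the TRBV4 shares of clonotypes in Treg, 2.93% to 4.25%, lie below those in Tcon, 4.38% to 5.10%.

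Treg and Tcon separated for TRBV4 and not for TRBV3. TRBV4 held 3.47% to 4.25% of clonotypes in the 5 Treg EAE E18 libraries (median 3.94%), 2.93% in Treg of EAE non-pregnant mice and 3.61% in naive Treg. It held 4.81%, 4.38%, 4.95% and 5.10% in Tcon of EAE mice, E18 and non-pregnant, and of naive mice, E18 and non-pregnant. The highest Treg library lay below the lowest Tcon library, which was so for 5.88% of segments, and 17.6% did not overlap in either direction. TRBV4 fell by 0.48 on the log2 scale in Treg (SE 0.10, edgeR adjusted p = 0.0113), and 11.8% of segments passed. The call was lost when either naive non-pregnant library was left out, Tcon (adjusted p = 0.0909) or Treg (0.0999), and with at least 10 reads per rearrangement (0.0551). At 10 reads the groups overlapped, with 4.63% in Treg EAE E18 replicate 1 and 4.56% in EAE non-pregnant Tcon. TRBV3 held 8.68% to 10.4% in Treg EAE E18 (median 8.87%), 10.8% and 10.4% in the other Treg libraries, and 9.23%, 8.03%, 9.12% and 9.13% in Tcon in the same order. These overlapped, and the log2 change was 0.12 (SE 0.09, adjusted p = 0.456). The fall was not particular to TRBV4. In edgeR TRBV31 changed by -0.44 (adjusted p = 0.00338), TRBV19 by -0.29 (0.0121) and TRBV14 by -0.45 (0.0534). The remaining segment that passed, TRBV12-1, rose by 2.11 (adjusted p = 0.000195). TRBV1 had a change of -0.23 (adjusted p = 0.0534), and TRBV2 and TRBV5 had changes of 0.02 and -0.01 (adjusted p = 0.896 for both). By reads neither member passed (adjusted p = 0.965 for both). There 0.0% of segments passed in edgeR, with 1 at an unadjusted p under 0.05 and 1 in DESeq2.

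Neither member differed beyond the spread between libraries with pregnancy or with EAE. From non-pregnant to E18, the log2 change by clonotypes was -0.06 for TRBV3 (SE 0.08) and 0.18 for TRBV4 (SE 0.10), both with an edgeR adjusted p of 0.973. From naive to EAE it was -0.08 for TRBV3 (SE 0.09, adjusted p = 0.793) and -0.13 for TRBV4 (SE 0.11, adjusted p = 0.721). In both comparisons 0.0% of segments passed in edgeR, with 1 and 2 at an unadjusted p under 0.05 and 0 in DESeq2. By reads the changes were -0.21 and 0.30 with E18 and 0.08 and 0.12 with EAE for TRBV3 and TRBV4 (adjusted p from 0.774 to 0.919). There 0.0% of segments passed in edgeR for either, with 2 and 1 at an unadjusted p under 0.05 and 0 in DESeq2. Whether the E18 or EAE change differed between Treg and Tcon was tested for both members by clonotypes and by reads, and the lowest of these 8 adjusted p-values was 0.459.

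CDR3 length did not differ between the segments beyond the spread over all libraries when each clonotype counted alike, but the direction varied between groups. TRBV3 averaged 13.7 ± 0.12 and TRBV4 13.7 ± 0.27 amino acids (SD, n = 17), with a paired difference of 0.0354 (permutation, adjusted p = 0.512). TRBV3 loops were the longer in 11 of 17 libraries, among them all 4 Tcon libraries, and the shorter in all 3 CNS libraries. The difference ranged from -0.513 in CNS replicate 3 to 0.234 in Tcon EAE E18, and whether it differed between groups was not tested. Weighted by reads, TRBV3 loops were longer by 0.230 amino acids, in 14 of 17 libraries (adjusted p = 0.00069). The share of J cluster 1 was 28.0% ± 2.8 for TRBV3 and 25.5% ± 4.1 for TRBV4, a difference of 2.46 points that did not pass (adjusted p = 0.0837).

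In the CNS, TRBV4 loops averaged 14.1, 14.0 and 14.5 amino acids in replicates 1 to 3, against 13.6, 13.9 and 13.8 in the periphery. The groups did not overlap, and the difference was 0.42, with an exact permutation p of 0.1, the smallest that 3 against 3 allows. The standard error over the 44 to 110 CNS clonotypes was 0.280 to 0.623 per library, about as large as the difference. TRBV3 loops averaged 13.8, 13.7 and 14.0 in the CNS and 13.9, 13.8 and 13.9 in the periphery, with groups that overlapped. In Treg, TRBV3 loops averaged 13.6 ± 0.056 (n = 7), and in Tcon 13.7 ± 0.053 (n = 4). Loops of all other V segments were shorter in Treg too, at 13.72 to 13.84 against 13.86 to 13.90 in Tcon, with no overlap. For TRBV3 the difference within matched states was -0.12, with an exact permutation p of 0.0417. That is the smallest that this comparison of 7 Treg with 3 Tcon libraries allows. None of the 18 exact tests on length, J cluster and largest clonotype passed after adjustment (lowest adjusted p = 0.45).

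TRBV4 had more reads per clonotype than TRBV3 in most libraries. Relative clone size is the log2 ratio of a segment's share of reads to its share of clonotypes, so 0 is the library average. It was -0.75 ± 0.51 for TRBV3 and -0.27 ± 0.61 for TRBV4, higher for TRBV4 in 15 of 17 libraries (permutation p = 0.00312, adjusted p = 0.0052). The exceptions were CNS replicates 2 and 3. The largest clonotype took 5.89% ± 6.4 of TRBV3 reads and 12.6% ± 12 of TRBV4 reads, more for TRBV4 in 15 of 17 libraries (adjusted p = 0.0052). Here the exceptions were Tcon EAE E18 and Treg EAE E18 replicate 2. TRBV4 has fewer clonotypes than TRBV3 in each library, and the part of that in the share of its largest clonotype was not tested. Relative clone size of TRBV3 ranged from -2.42 to -0.041 and so lay below 0 throughout. The PCR used a primer per V segment, and the part of primers in the reads of each segment was not tested.

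Single clones weighed more in the CNS than in the periphery. The largest TRBV4 clonotype took 32.1%, 28.2% and 31.8% of TRBV4 reads in CNS replicates 1 to 3, against 1.49%, 4.26% and 2.57% in the periphery. The largest TRBV3 clonotype took 6.68%, 24.96% and 14.9% in the CNS, against 0.925%, 2.14% and 2.08% in the periphery. The groups did not overlap for either segment (exact permutation p = 0.1 for each, the smallest possible). This measure was not computed for other V segments, so it may not be particular to these. CNS libraries held 1637 to 2975 clonotypes of all V segments, against 5884 to 12577 in the periphery. The part of that in the shares of the largest clonotypes was not tested. The CNS tables held 83 to 174 TRBV3 and 44 to 110 TRBV4 clonotypes, and the number of cells behind them is unknown. Among these, CNS replicate 3 had only 7 of 44 TRBV4 clonotypes with at least 10 reads.

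**Figure D3:**
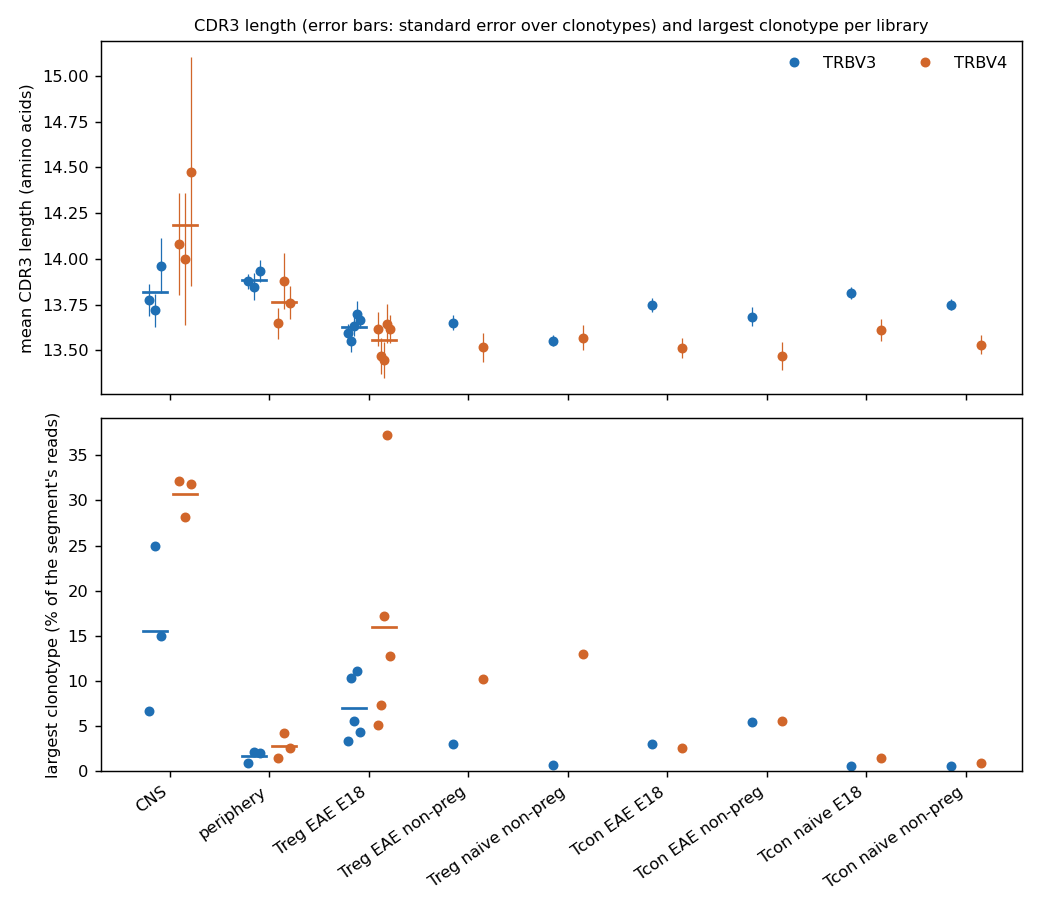
Mean CDR3 length in amino acids (upper panel, error bars are the standard error over clonotypes) and the share of the segment's reads in its largest clonotype (%, lower panel) for TRBV3 and TRBV4 in each library, with bars for group means. CNS libraries and Treg EAE E18 replicate 4 hold the TRBV4 clonotypes with the largest shares, from 28.2% to 37.2%.

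The leading TRBV3 clones of the CNS resembled each other, so their CDR3s are printed here. Lower case marks bases assigned to V or J, and capitals mark the D and inserted bases between them. All lie on chromosome 6, were assigned TRBD2 and are 14 amino acids long.
CNS replicate 1, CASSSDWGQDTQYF: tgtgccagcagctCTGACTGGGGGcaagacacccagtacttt
CNS replicate 2, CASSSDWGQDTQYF: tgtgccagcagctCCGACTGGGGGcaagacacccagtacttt
CNS replicate 2, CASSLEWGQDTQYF: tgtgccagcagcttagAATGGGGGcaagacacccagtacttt
CNS replicate 3, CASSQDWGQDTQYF: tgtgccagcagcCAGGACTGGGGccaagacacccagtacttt
CNS replicate 2, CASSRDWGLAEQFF: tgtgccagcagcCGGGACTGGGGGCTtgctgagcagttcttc

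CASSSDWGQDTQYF was the largest TRBV3 clonotype of CNS replicate 1, with 0.164% of all reads, and the 2nd largest of replicate 2, with 0.365%. Its nucleotide sequence differed between these libraries. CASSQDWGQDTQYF led replicate 3 with 0.316% of reads. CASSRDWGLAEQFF, which uses TRBJ2-1 in place of TRBJ2-5, led replicate 2 with 1.04%, and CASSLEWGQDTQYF was 3rd there with 0.243%. The residues DWG can be encoded by a reading frame of TRBD2, and they occur in many receptors.

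Receptors with DWG took 8.32%, 34.3% and 15.1% of TRBV3 reads in CNS replicates 1 to 3. In the periphery they took 2.37%, 3.01% and 3.89%, in Treg 3.21% to 4.31% and in Tcon 2.93% to 4.81%. Each CNS library lay above every other library. Leading clones made up most of these CNS values. The largest TRBV3 clonotype of each CNS library held DWG and alone took 6.68%, 24.96% and 14.9% of TRBV3 reads. In replicate 2 the 2nd largest, which also held DWG, took 8.76%. Among clonotypes counted alike, DWG was held by 4.60%, 3.75% and 8.43% in the CNS and 3.11%, 4.65% and 5.47% in the periphery, which overlapped. TRBV4 reads in the CNS held DWG at 4.17%, 2.56% and 0.0958%, and reads of all other V segments at 2.53%, 4.05% and 1.21%. Of the 10 leading TRBV3 clonotypes of each CNS library, 4 of 30 held DWG, against 0 of 30 in the periphery, 0 of 70 in Treg and 1 of 40 in Tcon. The motif was picked after the CNS clonotypes had been seen, so these values are a description and carry no test.

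**Figure D4:**
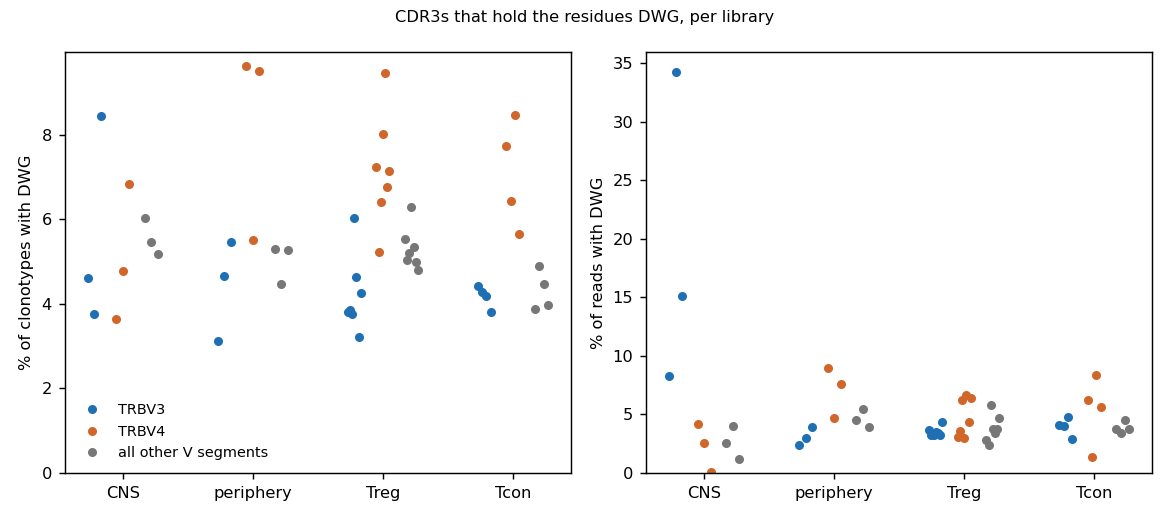
Share of clonotypes (left, %) and of reads (right, %) whose CDR3 holds the residues DWG, per library, for TRBV3, TRBV4 and all other V segments. By reads the 3 CNS points of TRBV3, at 8.32%, 15.1% and 34.3%, lie above all other TRBV3 points, and by clonotypes the groups overlap.

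The close relatives of these loops can be counted across the study. Their form was set after the leading CNS clones had been seen, so high CNS shares follow from that choice and carry no test. TRBV3 CDR3s of the form CASS, any residue, D or E, then WGQDTQYF comprised 6 clonotypes built from 23 nucleotide sequences. After the carry-over filter they took 6.68%, 14.6% and 15.0% of TRBV3 reads in CNS replicates 1 to 3. In replicate 1 this was 1 clonotype. In replicate 2 it was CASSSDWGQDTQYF with 8.76% and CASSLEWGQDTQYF with 5.82%, and in replicate 3 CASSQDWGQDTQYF alone held 14.9%. Receptors of this form took 0.139%, 0 and 0.00339% in periphery replicates 1 to 3, where a count of 0 allows up to 0.0151%. In the 11 DEREG libraries they took 0 to 1.09% (median 0.216%). At least 1 such receptor was found in 15 of 17 libraries. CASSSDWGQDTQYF itself was found in 7 libraries with 6 nucleotide sequences, and in 6 libraries after the filter. In Tcon EAE E18 and in Treg EAE E18 replicate 1 it was written as follows, with capitals as before.
Tcon EAE E18, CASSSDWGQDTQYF: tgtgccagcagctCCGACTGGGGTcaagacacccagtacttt
Treg EAE E18 replicate 1, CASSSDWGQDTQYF: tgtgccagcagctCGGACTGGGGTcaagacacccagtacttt
It held 0.0226% of reads in the first and 0.0235% in the second of these libraries.

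None of the 30 leading TRBV4 clonotypes of the CNS, 10 per library, held DWG. The largest of each CNS library is shown with that of Treg EAE E18 replicate 4, the highest share in Treg, and that of naive Treg. The clones shown held between 13.0% and 37.2% of the TRBV4 reads of their libraries. The largest of Treg EAE E18 replicate 3, with 17.2%, is not printed.
CNS replicate 1, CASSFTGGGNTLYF: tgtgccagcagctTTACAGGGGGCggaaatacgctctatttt
CNS replicate 2: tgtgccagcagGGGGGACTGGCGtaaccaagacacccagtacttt
CNS replicate 3, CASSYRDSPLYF: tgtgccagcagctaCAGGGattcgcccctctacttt
Treg EAE E18 replicate 4: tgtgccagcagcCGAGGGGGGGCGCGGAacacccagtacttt
Treg naive non-pregnant, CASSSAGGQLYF: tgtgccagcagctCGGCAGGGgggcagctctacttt
The CNS clones used TRBJ1-3, TRBJ2-5 and TRBJ1-6 and held 0.934%, 0.300% and 0.296% of all reads.

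The clone of Treg EAE E18 replicate 4 held 2.08% of all its reads (95% Wilson interval 2.03% to 2.13%) and 37.2% of its TRBV4 reads, and before the filter its CDR3 was found in 7 libraries. After the filter that CDR3 was not among the 5 most shared TRBV4 receptors, the last of which was found in 5 libraries. The other Treg EAE E18 libraries had largest TRBV4 clonotypes of 5.14%, 7.34%, 17.2% and 12.8% of TRBV4 reads in replicates 1, 2, 3 and 5. The largest TRBV4 clonotype took 10.3% in Treg of EAE non-pregnant mice and 13.0% in naive Treg, where it was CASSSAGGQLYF. In Tcon it took 2.63%, 5.63%, 1.495% and 0.948% of TRBV4 reads, in the order of libraries used for the shares. The EAE non-pregnant Tcon library lay above Treg EAE E18 replicate 1, and the other Tcon libraries lay below every Treg library. Treg exceeded Tcon by 10.6 points within matched states (exact permutation p = 0.167, adjusted p = 0.5), which is not beyond the spread. For TRBV3 the largest clonotype took 0.767% to 11.1% of TRBV3 reads in Treg and 0.567% to 5.47% in Tcon. The 3 naive libraries, with 0.767%, 0.658% and 0.567%, had the lowest of these shares. They also had the most TRBV3 clonotypes, 1572, 1481 and 1714, against 399 to 1219 in the other DEREG libraries. The part of that in these shares was not tested, and each naive library is the only one of its group.

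Most receptors of either segment were found in a single library. TRBV3 had 10823 distinct clonotypes, of which 1500 (13.9%) were found in 2 or more libraries and 12.3% after the carry-over filter. TRBV4 had 5469, of which 601 (11.0%) recurred, and 8.67% after the filter. No TRBV3 or TRBV4 clonotype was found in all 3 CNS libraries after the filter, and before it 2 TRBV3 and 0 TRBV4 clonotypes were. The 5 most shared receptors of each segment held 0 to 8 bases beyond V and J, again in capitals. For each segment the most shared receptor is printed with one of the fewest and one of the most such bases.
TRBV3, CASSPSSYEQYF: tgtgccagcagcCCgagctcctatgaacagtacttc
TRBV3, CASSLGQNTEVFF: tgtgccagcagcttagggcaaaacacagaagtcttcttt
TRBV3, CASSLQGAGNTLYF: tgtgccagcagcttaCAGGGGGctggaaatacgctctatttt
TRBV4, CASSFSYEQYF: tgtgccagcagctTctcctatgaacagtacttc
TRBV4, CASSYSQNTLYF: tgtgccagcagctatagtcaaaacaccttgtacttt
TRBV4, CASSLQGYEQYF: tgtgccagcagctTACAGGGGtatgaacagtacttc

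After the filter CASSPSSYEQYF and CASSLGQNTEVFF were each found in 10 libraries, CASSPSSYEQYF at up to 0.0464% of reads and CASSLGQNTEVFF at up to 0.0265%. The next TRBV3 receptors, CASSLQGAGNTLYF, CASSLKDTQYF and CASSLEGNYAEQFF, were found in 8 libraries each. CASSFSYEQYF, the most shared TRBV4 receptor, was found in 7 libraries. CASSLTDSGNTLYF, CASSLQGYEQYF and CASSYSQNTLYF followed with 6 libraries each and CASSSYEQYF with 5. The 5 TRBV4 receptors were found in no CNS library.

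The neighbours did not follow each other across libraries. Over the 17 libraries the share of TRBV3 clonotypes had a Pearson r of 0.13 with that of TRBV4, and over the 11 DEREG libraries r was -0.58. TRBV3 was most like TRBV23 (r = 0.76), TRBV30 (0.60) and TRBV31 (0.56). Within the DEREG libraries these values were 0.15, 0.48 and -0.03. TRBV4 was most like TRBV14 (r = 0.75), TRBV31 (0.72) and TRBV1 (0.58), and within the DEREG libraries these were 0.63, 0.68 and 0.52. All segments of a library share its total, run and depth, so these values describe likeness only.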

How the data were processed

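Rearranged TCRβ genes were amplified by PCR from genomic DNA with primers for the V and J segments, per the labels' protocols. The deposited tables give the read count of each CDR3 nucleotide sequence with no normalization, and the authors' fraction of reads equals the count divided by the library's total. Other columns deposited by the authors give where the V, D and J parts of a CDR3 end. The build is mm10, per the submitters' processing notes, and the program that assigned the segments is not given in the sources used here. Every rearrangement in the tables is in frame, with 0 stop codons.

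Clonotypes, or reads, were summed by V segment and by J segment. Those averaging 10 or more entered edgeR's two-sided quasi-likelihood test (version 4.0.16, R 4.3.3), with TMM scaling and V and J fitted apart, with Benjamini-Hochberg adjustment over both at 0.05. CNS was compared with periphery with no covariate. Treg against Tcon had the 4 combinations of immunization and pregnancy as a term, E18 had cell type and immunization, and EAE had cell type and pregnancy. A group of 1 library was assumed to vary like the others, and Treg against Tcon rests on 3 Tcon libraries, since the naive E18 library has no Treg counterpart. DESeq2 1.42.0 was the other tool. Single values were compared by exact permutation within strata, and paired values by sign flips (scipy 1.17.1 and numpy 2.4.6 under Python 3.11.15, with pandas 2.3.3 for tables and matplotlib 3.10.9 for figures). The tests were tried on simulated data. P-values measure the spread between samples only, and intervals cover counting error only, since PCR reads carried no molecular identifiers. Same-numbered CNS and periphery libraries deviated together (r = 0.574, 0.819 and 0.663 by clonotypes, 0.556, 0.686 and 0.244 by reads). On this hint from the data their numbers were taken as pairs in the replicate block only. The main fit and the main exact tests did not use these pairs, and the sign flips counted every library as independent. The labels do not state the pairing.

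Alternatives were another tool, no TMM, at least 2 or 10 reads per rearrangement, the carry-over filter (50 times), no filter on low segments, rearrangements in place of clonotypes, reads as weights, the replicate block and each library left out. The text names both segments in every library, every J partner that passed, the largest clonotypes, the 5 most shared clonotypes per segment, the 3 most alike segments and the neighbours TRBV1, TRBV2 and TRBV5. It also names every segment that passed by clonotypes between Treg and Tcon. The members and lists were chosen with earlier results of these data known, and the DWG motif and its relatives after their values were seen.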

Additional observations from a re-analysis of the deposited data

Results flagged for a closer look

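Of 12 checks for a library far from the others of its group, 2 stood out among the 5 Treg EAE E18 libraries, and chance alone marks about 1 in 20 such groups. The TRBV3 share of clonotypes was 10.4% in replicate 5, while the next highest library had 9.07%. The relative clone size of TRBV3 was -2.42 on the log2 scale in replicate 2, while the next lowest library had -0.72. In that replicate TRBV3 held 8.70% of clonotypes and 1.63% of reads, and TRBV4 also had its lowest relative clone size of the group, -1.13. Its carry-over share, 22.3% of rearrangements, was the highest of the DEREG libraries, and its part in these values was not tested.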

How the results depend on the processing

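Between TRBV3 and TRBV4, the differences in clonotype share, largest clonotype and clone size and the TRBJ1-6 share passed under each alternative run, while calls between groups depended on scaling, filters and single libraries. In CNS against periphery by clonotypes, TRBV4 passed with the replicate block (-0.33, adjusted p = 0.0477), without TMM (-0.51), with both (-0.52), and without TMM at 2 reads or more (-0.73). TRBV3 passed without TMM (-0.40) and without TMM with the block (-0.41). Dropping TMM moved the median change of all segments from 0.04 to -0.06, and by reads from 0.04 to -0.28, against 0.27 in DESeq2. By reads the median also moved from 0.07 to -0.09 with EAE, and from 0.01 to 0.13 in DESeq2 with E18. The cause of these shifts was not tested. The number of segments called in that comparison was 3, and it was 10 with the block, 7 without TMM, 12 without TMM with the block, 8 without TMM at 2 reads or more, and 0 with the carry-over filter (also joined to the block or to no TMM) or at 10 reads or more. It was also 0 without CNS replicate 3 or periphery replicate 1 and 1 without CNS replicate 1 or periphery replicate 2. By reads 1 segment was called with the block. In Treg against Tcon by clonotypes, 4 segments were called, 10 with additive terms, 8 at 2 reads or more, 6 without either EAE Tcon library or EAE non-pregnant Treg, 7 without Treg EAE E18 replicate 3, and 1 without either naive non-pregnant library. TRBV4 lost its call at 10 reads or more (-0.42) and ranged from -0.60 to -0.40 with 1 library left out. For TRBV3 minus TRBV4, the J cluster 1 share passed at 2 reads or more (4.27), at 10 reads or more (3.75) and with the carry-over filter (2.97), was -0.161 weighted by reads, and ranged from 1.97 to 2.99 with 1 library left out, where it passed without periphery replicate 2. CDR3 length differed by 0.230 weighted by reads and by -0.00233 with the filter. TRBJ1-2 calls of TRBV3 and the TRBJ2-4 call of TRBV4 were lost at 2 reads or more, and TRBJ1-3 between the members with the filter. By reads, 1 J partner passed between TRBV3 and TRBV4 and 0 for TRBV4 against the rest.

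Results that never passed also changed sign. The CNS J cluster 1 difference was 0.754 for TRBV3 by reads, and for TRBV4 it was -6.03, -2.98 and -1.30 at 2 reads, at 10 reads and with the filter. With 1 library left out these ranged from -2.75 to 0.841 for TRBV3 and from -3.17 to 2.97 for TRBV4. The E18 J cluster 1 difference was 5.84 by reads and 1.41 at 10 reads for TRBV3, and 8.93 by reads, 1.73 at 2 reads and 3.48 at 10 reads for TRBV4, ranging from -1.09 to 0.226 and from -1.60 to 1.19 with 1 library left out. TRBV3 CDR3 length differed by 0.0860 by reads in the CNS and by -0.00343 at 10 reads with E18. The EAE change of TRBV3 by clonotypes was 0.0046 at 2 reads and 0.14 at 10 reads, and without TMM by reads it was -0.14 for TRBV3 and -0.15 for TRBV4. With 1 library left out, TRBV3 ranged from -0.15 to 0.021 by clonotypes with E18, from -0.13 to 0.026 by clonotypes and -0.056 to 0.16 by reads with EAE, and from -0.046 to 0.29 by reads in Treg against Tcon. TRBV4 by reads ranged from -0.36 to 0.23 with EAE and from -0.64 to 0.012 in Treg against Tcon. The largest TRBV3 clonotype ranged from -1.15 to 2.50 with E18 and from -1.12 to 2.50 in Treg against Tcon, and that of TRBV4 from -1.23 to 3.76 with E18.

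The settings at 10 reads, and those that join no TMM or the block with another choice, were added after the data were seen. There was no block in DEREG libraries, because the groups compared share fewer than 2 replicate numbers. The CNS tables held 44 to 110 TRBV4 clonotypes, which limits the precision of their lengths and shares.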

Other observations

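A further resemblance among CNS clones was noticed after their values were seen and was not tested. In CNS replicate 1, TRBV4 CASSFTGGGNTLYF led its segment with 0.934% of reads, and TRBV3 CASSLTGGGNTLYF, with the same residues after the fifth and the same TRBJ1-3, was the fifth largest TRBV3 clonotype with 0.0987%. In CNS replicate 2, TRBV3 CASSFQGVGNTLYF, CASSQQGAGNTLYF and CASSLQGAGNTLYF, which also use TRBJ1-3, were the next largest after the receptors with WG and held 0.137%, 0.125% and 0.0999% of reads. The last of these was found in 8 libraries after the carry-over filter.

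Outside the CNS, the DWG residues were held by a larger share of TRBV4 than of TRBV3 clonotypes in 11 of 11 DEREG libraries, which was not tested. The means were 7.13% ± 1.2 of TRBV4 clonotypes and 4.20% ± 0.72 of TRBV3 clonotypes (SD), and 4.94% ± 0.69 of clonotypes of all other V segments.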
